A study of Mus musculus with 21 samples.

Results

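A list of 40 genes of the heat shock and unfolded protein responses was followed in mouse taste buds. They were chosen by name as the chaperones of the cytosol, the mitochondrion and the endoplasmic reticulum (ER) together with the sensors and transcription factors that control them. These 40 genes lay at 39 of the 32052 loci of the deposited expression table, which carry 43193 gene symbols in all. They comprised 12 cytosolic chaperones and cochaperones, 3 mitochondrial chaperones, 17 ER chaperones, folding enzymes and disposal factors, and 8 sensors and transcription factors. A locus here is a stretch of overlapping transcripts in the authors' merged annotation, and the mitochondrial genes Hspd1 and Hspe1 shared 1 locus.

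RNA came from circumvallate taste buds, the chemosensory organs in the walls of a trench at the back of the tongue, of wild type C57BL/6J mice aged 20 to 24 weeks. The labels describe 21 libraries in 3 groups of 7, called Ad lib, Satiated and Hungry, and the design text names fed, fasted and ad libitum fed animals. The strain, genotype, age and tissue are the same in all 3 groups, and the labels used here do not say whether a library came from 1 animal or from a pool. The question posed by the series title, a difference between fed and fasted mice, cannot be put to this table: its conditions held identical values at all 32052 loci, 0 of which differed. Each level below is therefore the authors' mean over libraries of all groups, with no value per library and no test. Its spread is given below as a coefficient of variation from the authors' variance.

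When proteins unfold in the cytosol, the transcription factor HSF1 binds heat shock elements, inverted repeats of a short GAA unit, and raises the genes of the Hsp70, Hsp90, Hsp40 and small heat shock families. When proteins unfold in the ER, the chaperone BiP (Hspa5) leaves the membrane sensors IRE1, PERK and ATF6: IRE1 removes a short intron from Xbp1 mRNA, PERK phosphorylates a translation factor and so favours ATF4, and ATF6 is cut to release a transcription factor. Taste cells are replaced throughout life and carry receptors and channels that are folded in the ER.

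The promoter sequences of both sets are shown first because matches to their known motifs fell in different groups. The genes were chosen by pathway, and known targets of these factors are among them, so the matches are no independent evidence. RefSeq promoter windows (GRCm38.p6, 250 bases before to 50 bases after a start site, the start base counted as 1) were found for 31 of the 40 genes. The heat shock element with 2 units, GAANNTTC, stood on either strand in the windows of 9 of these 31 genes, 7 cytosolic and 2 mitochondrial, and in 7.86% of all 32851 windows. With 3 units, GAANNTTCNNGAA, it stood in the windows of Hspd1, Hspe1 and Hsph1 and in 0.603% of all windows. Every match with 3 units overlaps a match with 2 units. The following stretches show the 2-unit element in capitals, read 5′ to 3′ on the strand of the gene.
Hspa1a, chr17:34972238-34972275, minus strand: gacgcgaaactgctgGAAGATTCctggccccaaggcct
Hspa1b, chr17:34959320-34959357, minus strand: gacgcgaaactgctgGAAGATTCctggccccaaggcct
Hspb1, chr5:135887787-135887824, plus strand: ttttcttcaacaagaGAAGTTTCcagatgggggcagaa
Hspb1, chr5:135887807-135887844, plus strand: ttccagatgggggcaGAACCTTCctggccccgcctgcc
Dnaja1, chr4:40722329-40722366, plus strand: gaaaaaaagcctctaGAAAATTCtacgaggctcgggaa
Hspd1, chr1:55088049-55088086, minus strand: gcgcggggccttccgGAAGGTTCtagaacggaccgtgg
Hspe1, chr1:55088049-55088086, plus strand: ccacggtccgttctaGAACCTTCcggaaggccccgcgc
The Hspd1 and Hspe1 lines are the same 38 bases read on opposite strands, because these genes start head to head and their windows overlap. In Hsph1, Hspb8 and Bag3 the matches lay after the start site, beginning at base 21 and base 42 in Hsph1, base 3 in Hspb8 and base 43 in Bag3.

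The ER stress element (ERSE), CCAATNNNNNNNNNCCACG on either strand, stood in the windows of 7 of the 31 genes, all 7 from the ER group, and in 0.119% of all 32851 windows. The related ERSE-II, ATTGGNCCACG, stood in the windows of Dnajb11 and Herpud1, both of the ER group, and in 0.0365% of all windows. Each ERSE is shown in capitals on the strand of the gene, as CCAAT before CCACG or, where the match is on the other strand, as CGTGG before ATTGG. The Herpud1 line shows its ERSE-II.
Hspa5, chr2:34772010-34772058, plus strand: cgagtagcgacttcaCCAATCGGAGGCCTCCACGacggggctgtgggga
Hsp90b1, chr10:86705623-86705671, minus strand: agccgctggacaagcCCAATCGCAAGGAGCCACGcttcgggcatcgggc
Hsp90b1, chr10:86705518-86705566, minus strand: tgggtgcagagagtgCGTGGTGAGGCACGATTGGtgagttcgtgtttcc
Calr, chr8:84847060-84847108, minus strand: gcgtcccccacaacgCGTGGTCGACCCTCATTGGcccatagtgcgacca
Canx, chr11:50325785-50325833, minus strand: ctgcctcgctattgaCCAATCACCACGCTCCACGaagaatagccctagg
Creld2, chr15:88819505-88819553, plus strand: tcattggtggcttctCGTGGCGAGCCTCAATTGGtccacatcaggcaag
Dnajc3, chr14:118937812-118937860, plus strand: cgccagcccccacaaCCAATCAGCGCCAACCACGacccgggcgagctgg
Pdia6, chr12:17266476-17266524, plus strand: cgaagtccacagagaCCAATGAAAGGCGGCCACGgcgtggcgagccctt
Herpud1, chr8:94386362-94386402, plus strand: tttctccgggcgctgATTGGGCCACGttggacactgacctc
All 8 ERSE matches began at positions from −212 (Hsp90b1) to −65 (Hspa5) relative to the start site. No window of the 31 genes held TGACGTGG, the core of the unfolded protein response element, which stood in 0.676% of all windows, or TGATGNAAT, an amino acid response element, which stood in 0.965%. A match is a description of letters, and binding of a factor was not measured here.

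**Figure D1:**
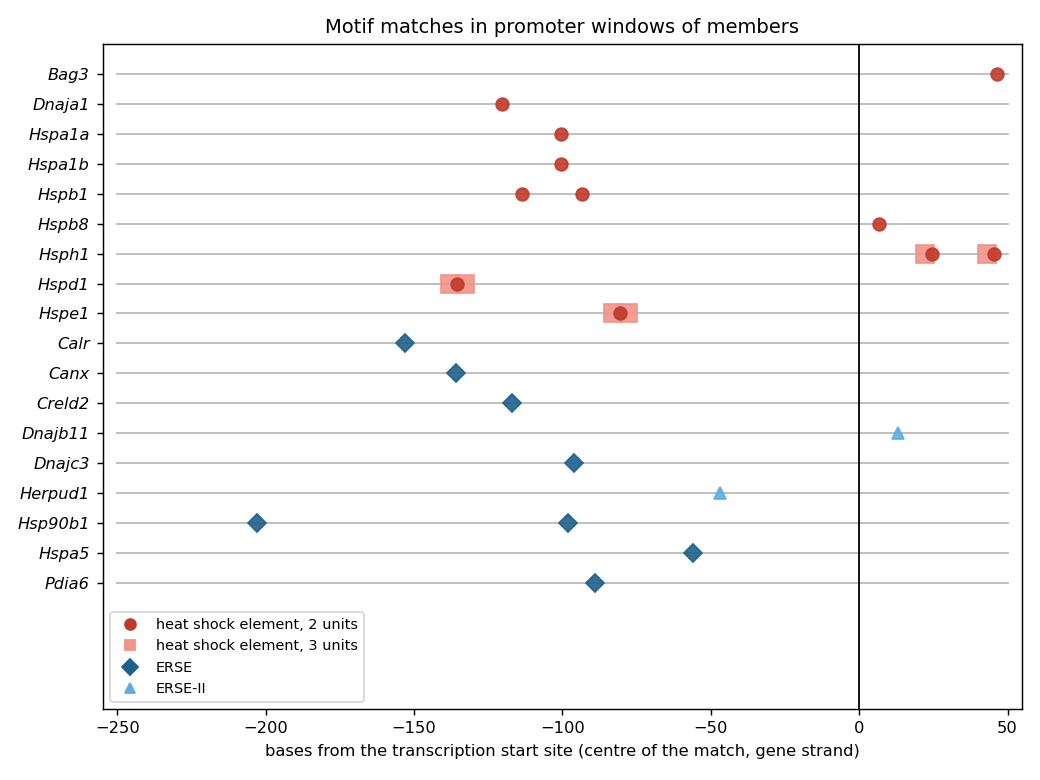
Position of each motif match in the promoter windows of the 18 genes that hold one, in bases from the transcription start site on the strand of the gene (x axis), with 1 line per gene (y axis). Heat shock elements (red circles for 2 units, pale squares for 3 units) lie in the 9 cytosolic and mitochondrial genes, and ERSE (dark diamonds) and ERSE-II (light triangles) lie in 9 genes of the ER group.

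Nearly all of these genes reached the detection level, set at a mean of 10 compatible fragments per library. A compatible fragment is a sequenced fragment that fits an annotated transcript. The detected genes were 39 of 40, beside 42.0% of all loci, and the exception was Ern2, the epithelial form of the IRE1 sensor, at 8.73 compatible fragments. The mean library held 21881979 compatible and 23769781 total fragments over all loci, and 13467 loci were detected. Of the 40 genes, 25 lay at loci with 1 gene symbol (24 of them detected), 5 shared a locus with small RNA genes only (Hspa8, Hspa9, Pdia4, Atf6 and Eif2ak3), and 10 shared it with longer genes. Those 10 were Hspa1a, Dnaja1, Hspd1, Hspe1, Hsp90b1, Herpud1, Manf, Pdia3, Pdia6 and Ddit3, and their fragments cannot be divided among the genes of the locus. Strand use in counting is not given in the sources used here, so reads of an antisense partner cannot be told apart.

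Markers of taste cells, the labelled tissue, were all detected, 9 of 9, among them Krt8, a simple keratin, at 37058 and Gnat3, the G protein of sweet, umami and bitter cells, at 24576 compatible fragments. Keratinocyte markers were also present, 10 of 10, with Krt6a at 41906 and Krt13 at 17703 fragments. Plasma and gland cells, which are rich in ER, were looked for by their markers. Of 7 plasma cell genes 3 were detected: Sdc1, which epithelia also express, at 13968 compatible fragments, Derl3 at 32.6 and Pou2af1 at 12.8. Under the detection level, Igj stood at 1.80, Mzb1 at 0.782 and Cd79a at 0.330 compatible fragments. Tnfrsf17 was listed at 0 compatible and 32.9 total fragments. Of 14 gland and goblet markers 5 were detected. Amy1 had 1469.9 fragments at a locus shared with Rnpc3, the goblet factor Spdef 317, Aqp5 70.5, Muc19 62.7 and Muc5b 58.4. Under the detection level, Foxa3 stood at 8.71, Muc2 at 8.05 at the highest of its 5 loci, Bpifb1 at 3.66 and Lipf at 3.04. Bpifa1, Lcn11, Dcpp1, Dcpp2 and Dcpp3 were listed at 0. Macrophage and dendritic cell genes were all detected, 9 of 9, and fibroblast and endothelial markers for 5 of 10, beside 42.0% of all loci. The 9 ran from Itgax at 21.3 to Cd74 at 623 fragments, with Cd68 at 96.6 and C1qc at 61.7. The lowest taste marker, Car4, had 1089. The 5 ran from Kdr at 10.7 to Vwf at 1508, with Dcn at 364. Below detection were Col3a1 at 5.32, Col1a2 at 5.31, Lum at 3.07, Col1a1 at 0.180 and Cdh5 at 0.0403 compatible fragments. In such mixed tissue, fewer cells of a type and less RNA per cell cannot be told apart.

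Levels of different genes are compared per kilobase (kb) of transcript. Because the annotation holds many short partial transcripts, each per-kb level is given as the range over 4 lengths: the median and the longest merged transcript, the union of exons and the longest GENCODE coding transcript. Among the 40 genes, an order is stated only where all 4 lengths gave it. The 24 detected genes at single-gene loci had a median of 2536 fragments per kb by median length and 1753 by GENCODE length. All 7246 detected single-gene loci of coding genes had medians of 242 and 181 fragments per kb by the same lengths. Between 21 and 23 of the 24 genes stood above the median of those loci, depending on whether the median, longest or GENCODE length was used. By these lengths, without the union of exons, Hsp90ab1 ranked between 2 and 13 among the 7246 loci. Hspa5 ranked between 3 and 38, Xbp1 between 9 and 22, and Hsp90aa1 between 7 and 64.

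**Figure D2:**
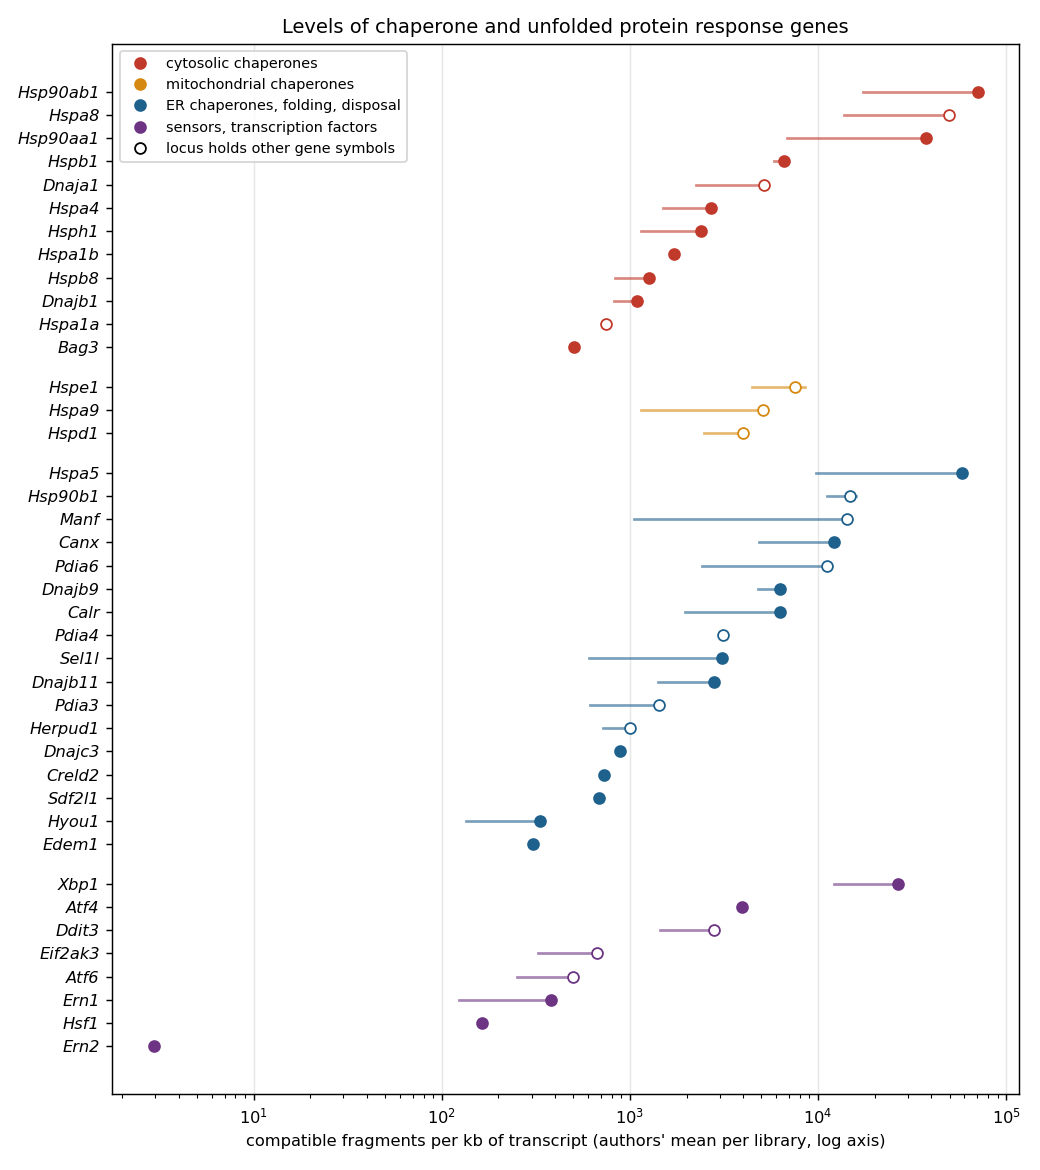
Level of each of the 40 genes in compatible fragments per kb of transcript (x axis, log scale, the authors' mean per library), by group and gene (y axis). Points use the median transcript length, lines span the 4 lengths, and open points mark loci that hold other gene symbols. Hsp90ab1, Hspa5 and Xbp1 stand at the high end, and Ern2 stands alone near 3 fragments per kb. Hspd1 and Hspe1 are plotted from the 1 total of their shared locus.

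Among the cytosolic genes, the constitutive Hsp90 and Hsp70 stood above their heat-inducible partners. Hsp90ab1, the constitutive cytosolic Hsp90, had 51933 compatible fragments (chromosome 17, 45567775 to 45573271), or 17317 to 70801 per kb. Hsp90aa1, its inducible partner, had 26800 fragments (chromosome 12, 110690605 to 110702728), which was 0.394 to 0.532 times the level of Hsp90ab1 per kb. Hspa8, the constitutive Hsp70 (Hsc70), had 57141 fragments (chromosome 9, 40800984 to 40805200) at a locus that also holds 3 small nucleolar RNA genes. Per kb, Hspa8 stood 8.02 to 28.9 times above Hspa1b, an inducible Hsp70. Hspa1b had 4805.5 fragments (chromosome 17, 34956436 to 34959238) and its neighbour Hspa1a 2206.5 (34969190 to 34972156), a ratio of 2.31 per kb. The Hspa1a locus also holds the coding gene Gm20481.

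The other cytosolic genes spanned a wide range. Hspa4 and Hsph1, relatives of Hsp70 that exchange its nucleotide, had 8272 and 8029.5 fragments. The Hsp40 cochaperones, which deliver clients to Hsp70, were Dnaja1 at 19445 fragments, at a locus shared with Smu1, and Dnajb1 at 2468. Of the small heat shock proteins, Hspb1 had 6048 fragments and Hspb8 had 1622, and Hspb1 was 5.22 to 7.28 times higher per kb. Bag3, the cochaperone that joins Hspb8 and Hsp70 in selective autophagy, had 1305 fragments, or 504 to 509 per kb, the lowest per-kb level of the 12 cytosolic genes under each of the 4 lengths.

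The mitochondrial chaperones had no locus of their own. Hspa9, the Hsp70 of the matrix, had 4522 fragments at a locus with 2 small RNA genes (chromosome 18, 34937414 to 34954357). Hspd1 and Hspe1, the large and small subunits of the matrix folding chamber, had 6576 fragments together (chromosome 1, 55077835 to 55091307). These fragments cannot be divided between the subunits, and the per-kb points plotted for Hspd1 and Hspe1 both rest on the same total.

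In the ER, BiP was the most abundant of the genes at single-gene loci under each of the 4 lengths. Hspa5, which encodes BiP, had 41773 compatible fragments (chromosome 2, 34771970 to 34777547), or 9708 to 58018 per kb. Whether Hspa5 or Hspa8 was higher depended on the length, with ratios from 0.477 to 1.17. Canx, the membrane-bound lectin chaperone, had 22884 fragments and stood 1.94 to 2.48 times above its soluble partner Calr, at 5664, per kb. Hsp90b1, the ER Hsp90 (GRP94), had 44835 fragments at a locus with 3 other symbols (chromosome 10, 86685601 to 86705509). The ER Hsp40 cochaperones of BiP were Dnajb9 at 11765 fragments, Dnajb11 at 4559 and Dnajc3 at 4623. Hyou1, which exchanges the nucleotide of BiP, was low for the ER group at 974 fragments, or 135 to 332 per kb.

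Disulfide isomerases of the list had 9032 fragments at the Pdia6 locus, which also holds Atp6v1c2, 7771 at Pdia4 and 1921 at the locus of Pdia3. The secreted or ER-retained stress proteins Creld2 and Sdf2l1 had 996 and 761 fragments, and Manf had 10395 at a locus of 12 symbols. In ER-associated degradation, which returns misfolded proteins to the cytosol, Sel1l had 5189 fragments, Edem1 1787 and Herpud1 1690, the last at a locus with 2 noncoding genes. Edem1 had the smallest compatible share of the ER group, 90.7% of its total fragments, beside a median of 97.4% over the 11 single-gene ER loci and 95.0% over all detected loci.

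Of the sensors and transcription factors, Xbp1 was by far the most abundant. Xbp1, the factor activated by IRE1, had 39392 compatible fragments (chromosome 11, 5520659 to 5525893), or 12128 to 26743 per kb. It stood 3.06 to 6.75 times above Atf4, the factor downstream of PERK, which had 6830 fragments (chromosome 15, 80255184 to 80257540). The sensors themselves were low beside Xbp1: Ern1, the ubiquitous IRE1, had 1011 fragments, Eif2ak3, which encodes PERK, 1753, and Atf6 2311. Each of these was above 394, the median fragments of all detected single-gene loci. Divided by length, Ern1 ranked between 2878 and 3975 among the 7246 single-gene coding loci. Per kb, Xbp1 was 70.2 to 127 times above Ern1 and 48.4 to 58.0 times above Atf6. Ern1 in turn was 42.1 to 129.6 times above Ern2. Ddit3, which encodes the stress factor CHOP, had 2489 fragments at a locus that also holds Mars. Hsf1 had 329 fragments, or 156 to 163 per kb, and the smallest compatible share of all 39 detected genes, 84.3%.

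IRE1 activity is read from the removal of 26 bases of Xbp1 mRNA, which the merged annotation was searched for. In the GENCODE M21 transcript (GRCm38) the excised bases lie in exon 4 of 5, at chromosome 11, 5524279 to 5524304. They are shown here in capitals with the bases on either side.
Xbp1, chr11:5524267-5524316, plus strand: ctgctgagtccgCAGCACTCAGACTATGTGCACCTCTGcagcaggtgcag
The search used the pair of CNGCNG cut sites 26 bases apart, and the same pattern also matched in exon 1. The merged annotation holds 6 Xbp1 transcripts, 2 of them assembled by the authors and not in the reference. In 0 of the 6 did an intron remove the capitals, and their shortest intron was 300 bases long. Settings of the assembly are not given, so whether it could report an intron of 26 bases is unknown. The 0 therefore says nothing about IRE1 activity. The table gives fragments per locus, so the share of spliced Xbp1 was not analysed here.

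The spread between libraries was largest at 4 cytosolic chaperones, 3 of them the inducible Hsp70 and Hsp90 genes. The coefficient of variation (CV), the square root of the authors' variance over their mean, was under 0.2 for 31 of the 39 detected genes and at least 0.3 for 4: Hspa1a at 0.335, Hsp90aa1 at 0.309, Hsph1 at 0.304 and Hspa1b at 0.304. The median CV of all 4696 loci with at least 1000 fragments, a level that some of the 39 genes do not reach, was 0.139. Over all 13467 detected loci the median was 0.231, with quartiles of 0.151 and 0.449. The share of all loci under 0.2 or at least 0.3 was not counted. The counts of 31 and 4 are therefore no result about the list. The constitutive partners varied less, with a CV of 0.135 for Hsp90ab1, 0.195 for Hspa8 and 0.117 for Hspa4. The remaining cytosolic genes also varied less: Hspb1 at 0.168, Dnaja1 at 0.155, Dnajb1 at 0.121, Hspb8 at 0.104 and Bag3 at 0.103. A large spread was thus not shared by all genes of the heat shock families. At the low end of the 39 genes stood Atf4 at 0.0618, Manf at 0.0873 and Xbp1 at 0.0957. The variance was formed within sets of 6, 7 and 8 libraries and divided by 21, as read from loci with fragments in 1 library, so it does not contain differences between sets. The labels give 7 libraries per group, so these sets are not shown to be the groups.

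**Figure D3:**
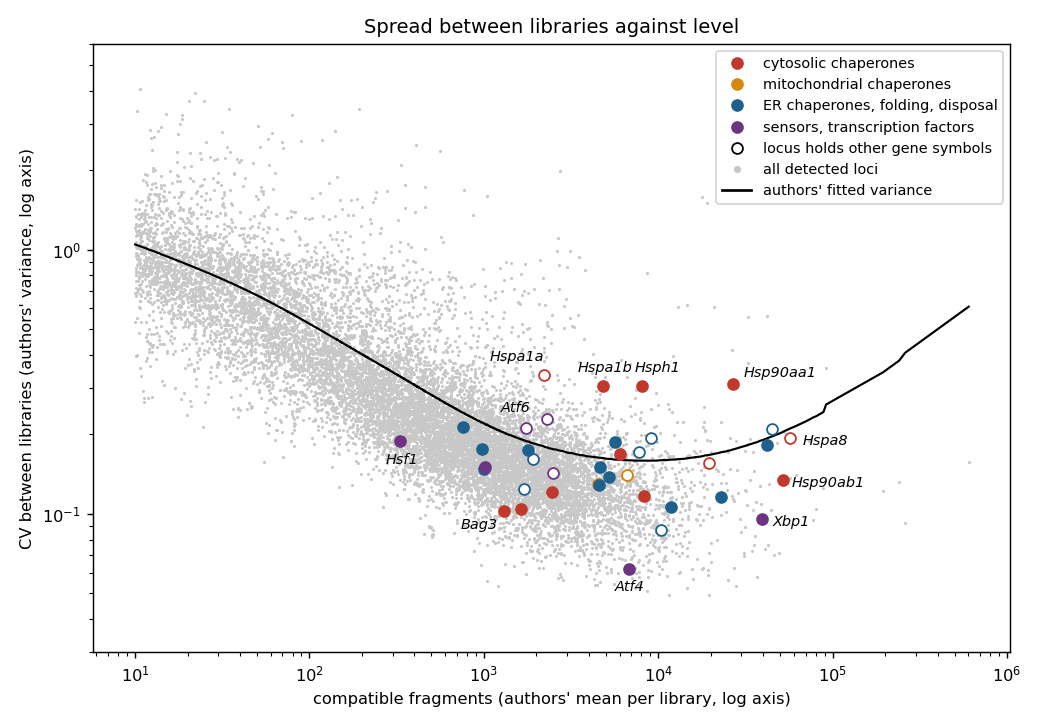
CV between libraries (y axis, log scale, from the authors' variance) against mean compatible fragments (x axis, log scale) for all 13467 detected loci (grey) and the 39 detected genes (coloured by group, open where the locus holds other symbols). The black line is the authors' fitted variance as a CV. Hspa1a, Hspa1b, Hsph1 and Hsp90aa1 lie at CVs of 0.304 to 0.335 above the line, and Atf4 lies lowest at 0.0618.

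Set against the variance that the authors' fit gives at the same level, these genes were more variable about as often as all detected loci. At 11 of 39 detected genes the variance exceeded the fitted variance, beside 26.1% of all 13467 detected loci. At single-gene loci it did so at 5 of 24, beside 27.6% of 8696. Both counts are near their background and are no result about the list. By role, the count at single-gene loci was 4 of 9 cytosolic genes, 1 of 11 ER genes and 0 of 4 sensors and factors. The median log2 ratio of variance to fitted variance was −0.89 for the cytosolic, −0.45 for the ER and −1.80 for the sensor genes, beside −0.62 over all detected single-gene loci. The fitted curve climbs at high levels, from a CV of 0.159 at the level of Hsph1 to 0.211 at that of Hspa8. Against a running median of the variance over loci of like level, which 49.9% of detected loci exceed, the counts were 6 of 9, 8 of 11 and 0 of 4, and the cytosolic and ER medians turned to 0.16 and 0.43.

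The 4 genes with the largest CV also stood high against the fit. Their log2 ratios to the fitted variance were 1.87 for Hsph1, 1.81 for Hspa1b, 1.79 for Hspa1a and 1.64 for Hsp90aa1. Only 3.17% to 4.06% of detected loci had a higher ratio. Against the running median the same genes stood at 2.85, 2.67, 2.49 and 2.66. Hspa8, Hspa5 and Dnaja1 were under the fitted variance, at −0.23, −0.17 and −0.21, and above the running median, at 1.23, 1.04 and 0.69. Bag3, Hspb8 and Dnajb1 lay under both, at −1.96, −1.76 and −1.07 to the fitted variance. In the ER group Pdia6 stood highest at 0.58, then Calr at 0.43, Pdia4 at 0.21 and Hsp90b1 at 0.18, and Manf stood lowest at −1.74. Of the sensors Atf6, at 0.71, and Eif2ak3, at 0.34, were above the fitted variance, both at loci shared with small RNA genes, while Xbp1 stood at −1.98 and Atf4 at −2.74, a ratio that 98.6% of detected loci exceeded.

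Keratinocyte markers varied far more than any of these genes. All 9 of those at single-gene loci exceeded the fitted variance, with log2 ratios from 3.08 for Krt6a to 6.51 for Krt13 and CVs of 1.58 for Krt13 and 0.561 for Krt6a. Taste markers did so at 2 of 7 single-gene loci, with a median of −0.80. The part of surrounding epithelium in the spread of Hspa1a, Hspa1b, Hsph1 and Hsp90aa1 was not tested.

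**Figure D4:**
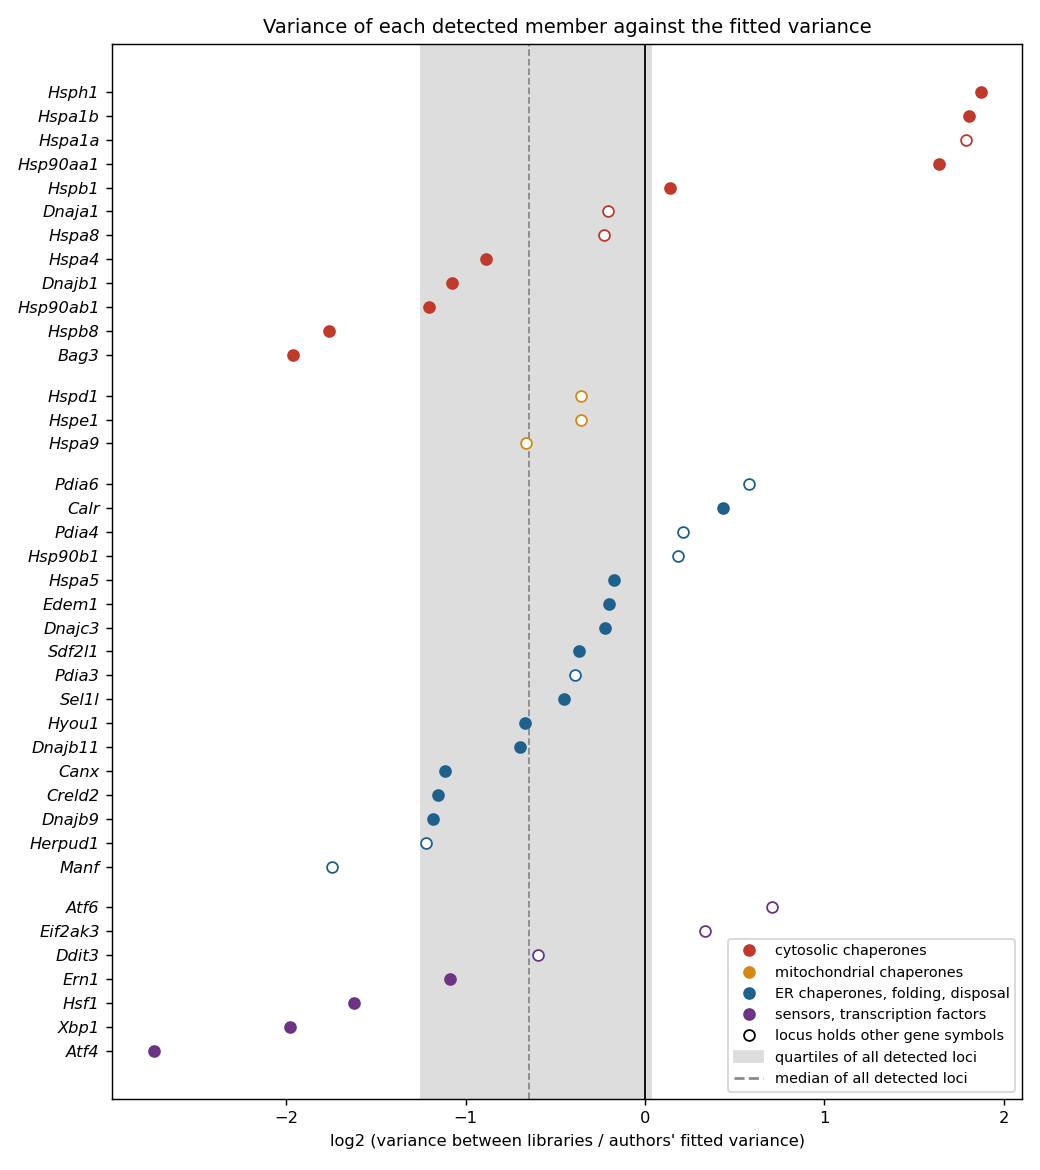
log2 ratio of the variance between libraries to the authors' fitted variance (x axis) for the 39 detected genes by group (y axis), with open points where the locus holds other symbols. The grey band spans the quartiles of all detected loci, −1.25 to 0.03, and the dashed line their median of −0.65. Hsph1, Hspa1b, Hspa1a and Hsp90aa1 stand between 1.64 and 1.87, and Atf4 at −2.74.

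Several of the most abundant chaperones have near-identical copies, which limits how exactly their level is known. Each 50-base window of the longest GENCODE M21 transcript was looked up in the transcripts of all other genes. Hspa8 shared 74.8% of its windows with other genes, Hspa1a 66.3%, Hspa1b 62.3%, Hsp90aa1 58.5%, Hspb1 51.6%, Hspd1 and Hspe1 44.8% each, and Dnaja1 28.8%. Another 10 genes shared some windows, Hsp90b1 the most among them at 13.8%, and 22 of the 40 shared none. A shared window need not lie in a copy, since some partners are other symbols of the same locus. That holds for all 3 partners of Hsp90b1 and for the only partner of Ddit3, Manf and Pdia6. It also holds for Smu1 at Dnaja1, Hspd1 at Hspe1 and Gm20481 at Hspa1a. Such windows can be the same bases under another symbol, which was not tested. Hsph1, Hspa5, Xbp1, Atf4 and Bag3 were among the 22. Windows of genes outside the list were not looked up in this way, so these counts have no background beside them. Of the 4 genes with the largest CV, Hsph1 thus has no shared window and the other 3 share more than 50%. The locus of Gm5844, a copy of Hsp90aa1 and the only symbol there, carried 1636 fragments. Loci that hold a copy beside other symbols carried 16356 fragments for Gm15459, a copy of Hspa8, 4555 for Gm12346, a copy of Hsp90aa1, and 1483 for Hsp25-ps1, a copy of Hspb1, and these cannot be assigned to the copy. How reads that match several places were treated is not given in the sources used here, so levels of these genes are uncertain.

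**Figure D5:**
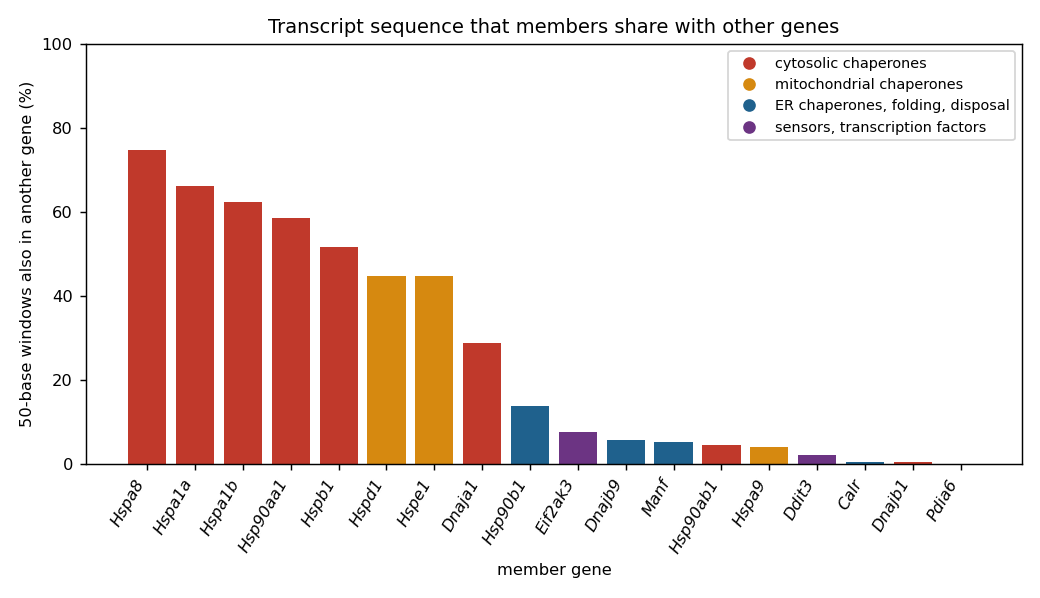
Share of 50-base transcript windows that also occur in a transcript of another gene (y axis, percent from 0) for the 18 genes with any such window (x axis). Cytosolic and mitochondrial chaperones hold the 8 bars above 25%, from 28.8% for Dnaja1 to 74.8% for Hspa8. The highest ER gene is Hsp90b1 at 13.8%, shared with other symbols of its own locus.

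Hspa1a and Hspa1b are the extreme case, and their upstream regions are printed whole because they are almost the same. Their coding sequences differ at 8 of 1923 aligned positions, an identity of 99.6%. The 250 bases before their start sites differ at 3 positions, with the 2-unit heat shock element in capitals.
Hspa1a, chr17:34972157-34972406, minus strand: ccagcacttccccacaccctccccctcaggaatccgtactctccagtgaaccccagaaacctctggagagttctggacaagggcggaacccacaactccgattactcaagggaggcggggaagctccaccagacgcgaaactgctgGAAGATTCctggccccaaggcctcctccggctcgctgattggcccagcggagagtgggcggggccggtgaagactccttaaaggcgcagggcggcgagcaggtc
Hspa1b, chr17:34959239-34959488, minus strand: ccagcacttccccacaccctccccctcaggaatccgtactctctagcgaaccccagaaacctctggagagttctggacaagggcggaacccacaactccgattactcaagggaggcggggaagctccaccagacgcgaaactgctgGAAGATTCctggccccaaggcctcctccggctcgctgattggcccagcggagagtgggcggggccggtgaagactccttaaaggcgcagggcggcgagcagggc
The ratio of 2.31 between their levels and the near-equal CVs of 0.304 and 0.335 are therefore values of 2 loci that many reads match alike.

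Related genes of the same pathways were nearly all detected too. From each family, genes high per kb by median transcript length at single-gene loci are named as examples. Under other lengths, or with shared loci, other genes can be higher. Of 33 other cytosolic chaperones and cochaperones 29 were detected, for example Ptges3, the Hsp90 cochaperone p23, at 2904 to 5187 and Dnaja2 at 3694 to 3799 fragments per kb. The 4 others were Hspa12b at 1.49 fragments, Hspb2 at 0.204, Hspb7 at 0.138 and Hspb3, listed at 0. The cytosolic folding chamber TRiC and its partner prefoldin were detected in full, 14 of 14, for example Cct4 and Cct5 at 8341 and 8603 fragments. None of their 7 single-gene loci exceeded the fitted variance, beside 27.6% of all detected single-gene loci. Of all 14 genes 0 did so, beside 26.1% of all detected loci. The median log2 ratio at their single-gene loci was −1.55, beside −0.62 over all detected single-gene loci.

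Of 14 other mitochondrial chaperones and proteases 13 were detected, for example Yme1l1 and Grpel2 at 3258 and 2350 fragments, and Spg7 was not found by its symbol. Of 28 other ER folding genes 25 were detected. P4hb, the prototype disulfide isomerase, had 23037 fragments and 8052 to 22141 per kb, the highest per-kb level of the family under each of the 4 lengths, and Dnajc10 had 3169 fragments. Those under the detection level were Pdilt at 0.93, Clgn, the testis form of calnexin, at 0.0403 and Agr3 at 5.25 fragments. The 18 genes of ER-associated degradation were all detected, among them Ubxn4 at 2472 fragments. Of 26 other genes of the unfolded protein and integrated stress responses 25 were detected, for example Asns, an ATF4 target, at 2442 fragments and Crebrf at 3229, while Creb3l3, a liver and gut factor, stood at 0.232. The variance exceeded the fitted one at 3 of 22, 0 of 6, 2 of 11, 1 of 11 and 1 of 14 single-gene loci of these 5 families in the order given, without TRiC and prefoldin, beside the 27.6% above.

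The merged annotation held 152 reference transcripts of the 40 genes and 40 transcripts that the authors' assembly added. The added transcripts belonged to 19 of the 40 genes, with 6 at Dnaja1, 4 at Hsph1 and 3 each at Hsp90b1, Manf and Pdia3. The other 21 genes had reference transcripts only. The share of all genes with added transcripts was not counted, so these counts are no result about the list.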

How the data were processed

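The deposited files are the authors' merged annotation and a Cuffdiff variance table, per the file headers. Its values are a signal: size-factor-scaled fragments per locus, the authors' mean over libraries, with a variance and a fitted variance, not divided by length. Reverse transcription used oligo(dT) primers, per the labels' protocols. Trimmomatic, FastQC, TopHat, Bowtie2, Cufflinks, Cuffdiff and GRCm38.p4 are named without versions or settings, per the submitters' processing notes.

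Each locus was joined to the gene symbols of the merged exons it holds. CV, log2 variance over fitted variance, per-kb levels over 4 lengths (the GENCODE M21 length was added after the data had been seen), promoter motifs and shared 50-base windows were computed with pandas 2.3.3 and numpy 2.4.6 under Python 3.11.15, and drawn with matplotlib 3.10.9. The running median was tested on simulated data. All 40 genes are named or counted. Of each related list, the 2 genes with the highest per-kb level at single-gene loci and those under detection are named. The level of 1 such gene is not reported here. The genes and lists were chosen with earlier results of these data known. No test was run, since groups held identical values, and alternatives covered detection level, total fragments, length, fitted curve and shared loci. Set sizes of libraries were read from loci whose variance over squared mean lay within 0.0001 of the value for 1 library.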

Additional observations from a re-analysis of the deposited data

How the results depend on the processing

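Of 73 values under alternative settings, 46 stayed within set limits and 27 moved beyond them. The limits were a factor of 1.5 for counts, the median CV of the group for per-kb levels, and 1 SD over the genes of the group with the same sign for CVs, shares and log2 ratios. Within these wide limits the cytosolic median log2 ratio still ran from −0.89 up to −0.22. The count of detected genes was 29 with the 10 genes at loci shared with longer genes left out. At single-gene loci, which hold only 25 of the 40 genes, it was 24. Both counts are lower because fewer genes enter. The median level per kb depended on length. With the longest transcript it was 1714 for cytosolic, 891 for ER and 1479 for all genes. With the union of exons it was 1496, 891 and 1275, and with the longest GENCODE coding transcript 1791, 899 and 1753. The reported medians by median length were 2382, 2801 and 2536, so the order of the cytosolic and ER groups depended on the length. The sensor median of 2171 became 668 with all loci and 582 with loci shared with small RNA added. Against a running median, the median log2 variance ratio was 0.16 for cytosolic, 0.43 for ER, −0.83 for sensor and 0.091 for all genes, and with all loci it was −1.09 for sensors. The count of ER genes above the fitted variance was 1 of 11, beside 27.6% of detected single-gene loci. It was 4 of 17 with all loci, beside 26.1% of detected loci, and 2 of 12 with small RNA loci added. Above the running median, which 49.9% of detected loci exceed, stood 8 of 11, and 7 by total variance. For sensors the count above the fit was 0 of 4, 2 of 7 with all loci and 2 of 6 with small RNA loci added. For all genes it was 5 of 24, 11 of 39 and 8 of 29 in the same order. Above the running median stood 14 of 24, and 13 by total variance. Counts above the fit and above a running median have unlike backgrounds, so their difference is no result about the genes. More loci enter when shared loci are added; other causes were not tested.

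No paired analysis was possible because the table holds no value per library, so a replicate block and leaving out a library were not run. Levels near the detection limit of 10 fragments, such as Ern2, rest on few fragments.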
